A study of Mus musculus with 4 samples.

Results

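Small nucleolar RNAs and small Cajal body RNAs were described in mouse liver tumour-initiating stem-like cells, a population cultured from liver tumours of C57BL/6 mice. The members are the rows of the deposited gene table whose symbols begin with Snord, Snora or Scarna followed by a digit. The rule used names alone and found 119 of 23359 rows: 74 Snord rows (box C/D), 36 Snora rows (box H/ACA) and 9 Scarna rows (Cajal body). There were 4 groups with 1 library each. The first received vehicle, for which no treatment time is given in the sources used here. The second received 5 µg/ml of all-trans retinoic acid, abbreviated ATRA, a ligand of the retinoic acid receptors, for 16 hours. The third received 0.5 µg/ml of SAHA, an inhibitor of histone deacetylases also known as vorinostat, for 16 hours. The fourth received both compounds for 16 hours and is called the combination here. The doses in the combination are not restated in the labels. All 4 groups were grown in medium with serum, EGF and dexamethasone, and the labels do not say how many animals or isolates the cells came from. Because each group is a single library, the spread between replicates is unknown, and no error or p-value stands beside any value.

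Small nucleolar RNAs guide chemical changes in other RNAs. A box C/D RNA pairs with its target and directs the methyltransferase fibrillarin to methylate a ribose. A box H/ACA RNA directs the pseudouridine synthase dyskerin to turn a uridine into pseudouridine. Most targets are ribosomal RNA, while the Cajal body RNAs act on spliceosomal small nuclear RNAs. In mammals most of these guides lie in introns of longer genes, called host genes, and are cut from the removed intron, so that a guide and its host are made from the same primary transcript. A few, Scarna2 and Snord118 among them, are transcribed from promoters of their own.

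The 4 Cajal body RNAs at the highest levels are shown first, since the largest folds over vehicle among members above 0 in every library were in this class. The sequences are GENCODE release M21 transcripts on the mm10 assembly, written 5′ to 3′ with T for U. In Scarna2, a box C/D guide for U2 snRNA, and in Scarna10, which carries both kinds of box and guides U5 snRNA, the capitals mark the stretch that RefSeq annotates for the gene. In Scarna13, an H/ACA RNA, they mark the ACA box, and in Scarna6 the C box TGATGA and the D box CTGA. Scarna2 is shown from base 115 and Scarna10 from base 26, the last 300 bases of each.
Scarna2 (chr3:108554338-108554637, minus strand): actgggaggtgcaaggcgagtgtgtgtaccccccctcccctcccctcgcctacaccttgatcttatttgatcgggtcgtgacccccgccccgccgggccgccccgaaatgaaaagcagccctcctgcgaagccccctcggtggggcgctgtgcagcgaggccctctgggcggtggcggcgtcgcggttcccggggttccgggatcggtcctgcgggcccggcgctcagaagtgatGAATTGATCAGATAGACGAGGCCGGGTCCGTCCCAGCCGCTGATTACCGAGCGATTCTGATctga
Scarna10 (chr6:125186359-125186658, minus strand): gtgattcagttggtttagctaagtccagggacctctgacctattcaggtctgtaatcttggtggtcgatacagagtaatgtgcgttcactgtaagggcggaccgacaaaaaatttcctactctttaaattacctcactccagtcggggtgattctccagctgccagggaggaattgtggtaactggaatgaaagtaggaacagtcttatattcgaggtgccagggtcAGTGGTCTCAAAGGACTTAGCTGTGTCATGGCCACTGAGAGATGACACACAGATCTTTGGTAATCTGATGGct
Scarna13 (chr12:105031075-105031349, minus strand): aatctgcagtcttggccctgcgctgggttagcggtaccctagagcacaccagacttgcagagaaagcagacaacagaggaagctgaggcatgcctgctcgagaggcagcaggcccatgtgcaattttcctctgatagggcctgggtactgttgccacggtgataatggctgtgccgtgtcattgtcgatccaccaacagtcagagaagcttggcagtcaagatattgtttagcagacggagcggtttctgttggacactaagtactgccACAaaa
Scarna6 (chr1:87784556-87784820, plus strand): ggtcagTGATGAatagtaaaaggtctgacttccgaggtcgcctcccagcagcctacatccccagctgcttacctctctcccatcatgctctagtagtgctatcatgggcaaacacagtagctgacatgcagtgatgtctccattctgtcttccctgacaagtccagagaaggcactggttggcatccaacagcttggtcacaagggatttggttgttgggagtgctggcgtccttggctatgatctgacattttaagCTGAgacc
The stretch in capitals is 61 of 414 bases in Scarna2, from base 350 to 410, and 71 of 325 bases in Scarna10, from base 253 to 323. It lies near the 3′ end of both RNAs. The deposited Scarna2 row covers exactly the 61-base stretch. The Scarna10 row is listed with a longer locus that holds another row, so the length behind its values was not given. FPKM divides by transcript length, so levels based on such short stretches cannot be compared with levels of whole RNAs.

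Scarna3a and Scarna3b are shown because their values took the same course over the libraries. Their transcripts differ by 20 edits over 140 and 139 bases, an identity of 85.7%, so reads may have been shared between them. Neither has ACA followed by exactly 3 bases at its end, so both are in lower case.
Scarna3a (chr1:159340283-159340422, plus strand): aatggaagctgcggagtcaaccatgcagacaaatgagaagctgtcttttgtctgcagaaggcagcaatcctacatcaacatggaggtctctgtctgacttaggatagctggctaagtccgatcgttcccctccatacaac
Scarna3b (chr12:80391613-80391751, minus strand): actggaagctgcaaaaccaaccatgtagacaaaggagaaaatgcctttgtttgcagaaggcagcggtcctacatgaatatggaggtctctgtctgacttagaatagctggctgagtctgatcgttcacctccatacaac

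The box C/D RNAs shown next are the 4 highest by mean, Snord47 from the Gas5 locus, and Snord104, whose values lay near whole multiples of the smallest. Capitals mark the C box and the D box where they were found.
Snord15b (chr7:99479563-99479707, minus strand): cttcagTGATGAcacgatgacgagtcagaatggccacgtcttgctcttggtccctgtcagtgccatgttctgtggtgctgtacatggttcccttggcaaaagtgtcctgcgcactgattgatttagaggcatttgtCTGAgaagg
Snord15a (chr7:99482785-99482932, minus strand): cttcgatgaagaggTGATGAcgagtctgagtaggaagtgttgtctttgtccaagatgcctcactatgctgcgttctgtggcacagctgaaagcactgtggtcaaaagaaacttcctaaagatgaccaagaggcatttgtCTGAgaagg
Snord17 (chr2:144265979-144266216, minus strand): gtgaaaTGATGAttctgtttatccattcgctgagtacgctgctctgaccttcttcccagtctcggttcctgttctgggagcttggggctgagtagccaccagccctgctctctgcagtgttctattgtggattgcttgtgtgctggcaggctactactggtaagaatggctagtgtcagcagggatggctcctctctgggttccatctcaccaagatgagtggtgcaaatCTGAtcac
Snord22 (chr19:8725866-8725991, plus strand): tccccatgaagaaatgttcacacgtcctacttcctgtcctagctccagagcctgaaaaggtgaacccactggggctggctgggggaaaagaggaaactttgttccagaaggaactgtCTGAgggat
Snord47 (chr1:161038082-161038158, plus strand): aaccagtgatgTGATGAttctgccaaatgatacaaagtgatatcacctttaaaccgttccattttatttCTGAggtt
Snord104 (chr11:106500993-106501062, plus strand): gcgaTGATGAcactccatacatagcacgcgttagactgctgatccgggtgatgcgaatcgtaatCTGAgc
The box H/ACA RNAs shown are 4 of the 5 highest by mean and Snora21 and Snora26, which were low with SAHA. Capitals mark the ACA box.
Snora7a (chr6:115807975-115808114, minus strand): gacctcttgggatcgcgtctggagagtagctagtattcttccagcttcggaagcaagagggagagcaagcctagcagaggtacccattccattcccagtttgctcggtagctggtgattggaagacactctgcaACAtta
Snora78 (chr17:24719676-24719803, minus strand): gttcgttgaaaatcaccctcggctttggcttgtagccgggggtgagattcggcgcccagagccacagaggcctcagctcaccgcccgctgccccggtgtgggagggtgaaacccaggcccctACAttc
Snora43 (chr2:26637847-26637985, minus strand): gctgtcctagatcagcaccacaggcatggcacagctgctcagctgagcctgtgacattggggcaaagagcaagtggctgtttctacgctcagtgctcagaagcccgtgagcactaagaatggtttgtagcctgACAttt
Snora23 (chr7:110046364-110046547, plus strand): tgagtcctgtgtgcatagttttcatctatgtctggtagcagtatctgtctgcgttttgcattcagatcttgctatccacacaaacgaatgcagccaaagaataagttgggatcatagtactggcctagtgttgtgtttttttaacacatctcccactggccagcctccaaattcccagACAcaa
Snora21 (chr11:97781639-97781775, minus strand): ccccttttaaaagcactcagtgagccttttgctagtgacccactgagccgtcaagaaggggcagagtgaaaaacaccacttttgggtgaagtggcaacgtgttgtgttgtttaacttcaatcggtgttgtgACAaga
Snora26 (chr5:74093530-74093650, plus strand): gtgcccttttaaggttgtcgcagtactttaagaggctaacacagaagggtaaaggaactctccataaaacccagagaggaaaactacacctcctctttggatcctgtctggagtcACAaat

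Sequence elements followed the names of the classes. The C box letters TGATGA were searched in the first 20 bases and the D box letters CTGA in the last 15, on the RNA's own strand. Of 73 C/D members with a sequence, 46 held the C box, 66 the D box and 44 both. Of 36 H/ACA members, 0 held the C box, 2 held the D box letters and 30 ended in ACA followed by 3 bases. None of the 73 C/D members ended so. Of the 9 Cajal body members, 4 held both C and D boxes and 2 the ACA box. GENCODE lengths ran from 64 to 238 bases in C/D members, with a median of 80.0, from 121 to 196 in H/ACA members, with a median of 132, and from 70 to 414 in the Cajal body class, with a median of 140.

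The loci of most members were shared. By GENCODE, 59 members lay in an intron of a longer gene on the same strand, 53 overlapped an exon of at least 1 transcript of such a gene, and 6 lay outside any. Reads from such exons can belong to the guide or to its host, and the deposited values do not tell them apart. Snord116, a guide of the imprinted Prader-Willi region, was not matched by symbol in the GENCODE and RefSeq tables used here. The deposited table gives 1 locus per row, and 109 members had a locus that overlapped at least 1 other row. For 107 members a longer gene's row spanned the member, and 49 members overlapped another member. At 21 loci 2 or more members had the same coordinates, and 4 was the most at 1 locus, namely Snora16a, Snora44, Snora61 and Snord99 in Snhg12 (chr4:132308678-132311024) and Snord32a, Snord33, Snord34 and Snord35a in Rpl13a (chr7:45125563-45128745). The RefSeq interval lay inside the deposited locus for 110 members and equalled it for 7. For 8 members it did not lie there. Snord118, whose RNA is needed to mature the large ribosomal subunit, was one of them: it is annotated on chromosome 11 and was listed at a locus on chromosome 19.

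Near-identical copies were few. Besides Scarna3a and Scarna3b, 6 pairs had at least 75% identity. The transcripts of Snord116l1 and Snord116l2 were identical, and Snord14c and Snord14d differed by 2 edits, as did Snord1b and Snord1c. All 3 Snord116 rows and all 3 Snord14 rows were listed at 0 in every library.

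Box C/D RNAs were mostly listed at 0, while most H/ACA RNAs had values. A value of exactly 0 may stand for an estimate that failed as well as for an absent RNA. In all 4 libraries, 46 of 74 C/D members (62.2%), 6 of 36 H/ACA members (16.7%) and 2 of 9 Cajal body members (22.2%) were listed at 0. Across the whole table the share was 5.25%, and over 639 rows of miRNA genes, which are also short, it was 82.6%. Another 35 members were at 0 in 1 to 3 libraries, and 30 were above 0 in all 4: 7 C/D, 17 H/ACA and 6 Cajal body members. By library, 46 members were above 0 under vehicle, 45 under ATRA, 40 under SAHA and 50 in the combination. In the H/ACA class the same counts were 25, 24, 20 and 25.

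**Figure D1:**
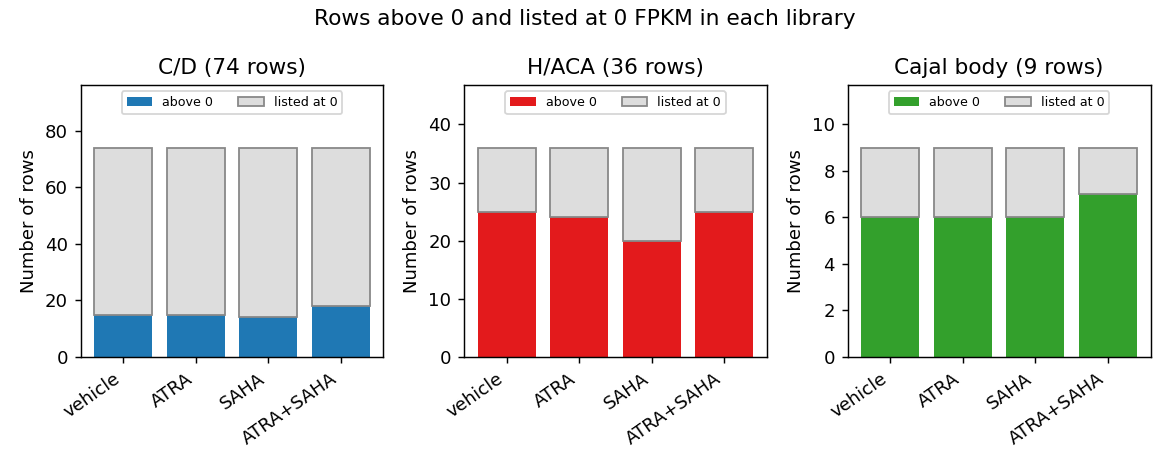
Number of rows above 0 FPKM (coloured) and listed at 0 (grey) in each library, for the 3 classes. C/D rows above 0 number 14 to 18 of 74, H/ACA rows 20 to 25 of 36 and Cajal body rows 6 or 7 of 9.

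Zeros went with length. RefSeq lengths were shorter than GENCODE's for 95 of the 118 members with both, by 20 bases or more in 30. Of 39 members of at least 110 bases in RefSeq, 5 were at 0 in all 4 libraries and 24 were above 0 in all 4. Of 79 shorter members, 48 were at 0 throughout and 6 were above 0 throughout. Class and length overlap: 29 of 36 H/ACA members but only 5 of 73 C/D members had 110 bases or more. Within that length range 4 of the 5 C/D members and 16 of the 29 H/ACA members were above 0 in all 4 libraries. The column-based RNA extraction named in the labels is of a kind that keeps very short RNAs poorly, and its part in the zeros was not tested.

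Many members listed at 0 are annotated by GENCODE in highly expressed host genes. Of the 54 members at 0 throughout, 45 had a host with a row of its own, and for 22 of them the host's mean was at least 10 FPKM and for 12 at least 100. Among the 22 are Snora19, Snord14a, Snord14c, Snord14d and Snord58b, whose deposited loci lie outside these hosts. Snord14c and Snord14d are also among the 12. The zeros of these members were not listed at the host's locus. Snord42a and Snord4a were listed at 0 although their host Rpl23a, a ribosomal protein gene, was at 526, 564, 451 and 657 FPKM in the order vehicle, ATRA, SAHA and combination. Snord37 was at 0 in Eef2, an elongation factor gene, at 288, 348, 412 and 546 FPKM.

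The shorter the member, the higher was its smallest value above 0. Among members under 65 bases the smallest of 15 values above 0 was 11.8 FPKM. It was 4.89 FPKM from 65 to 74 bases, 3.63 from 75 to 89, 1.73 from 90 to 109, 1.51 from 110 to 129, and 1.25 from 130 bases up. With miRNA rows included, the smallest value from 110 to 129 bases was lower, at 0.139 FPKM. FPKM divides by length, so that 1 fragment is worth more in a shorter RNA. A value near 12 FPKM in a member under 65 bases was thus the lowest listed. No counts were used here, and the fragments behind a value are not known.

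**Figure D2:**
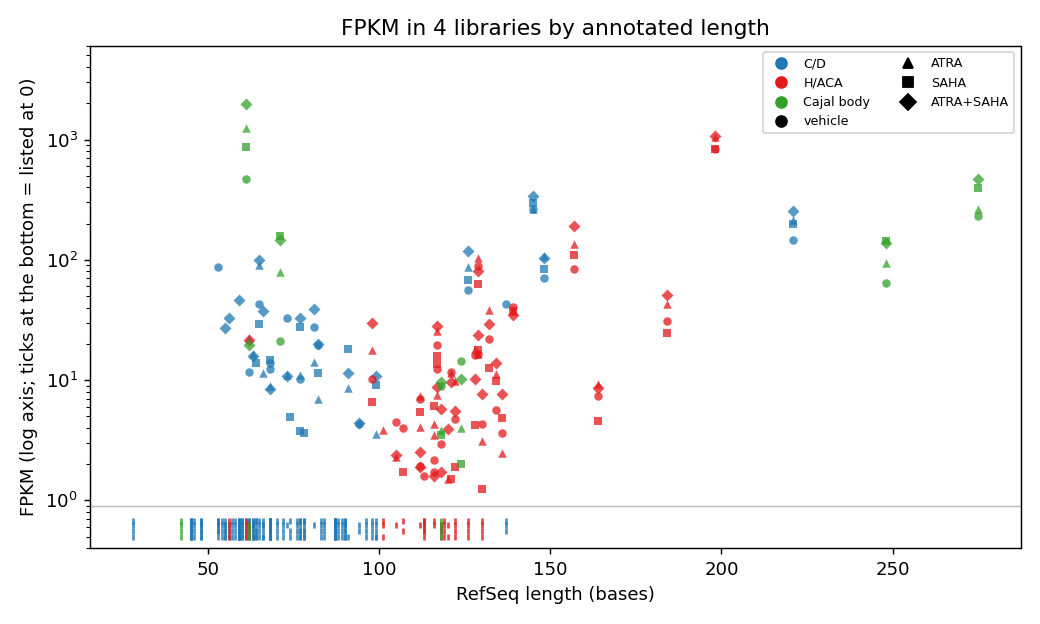
FPKM (log axis) against RefSeq length in bases for 118 members in 4 libraries. Colours give the class and marker shapes the library. Ticks under the grey line are values listed at 0. The lowest values above 0 go down from 11.8 FPKM under 65 bases to 1.25 FPKM from 130 bases up.

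Some low members had values near whole multiples of their smallest value. Of 17 members above 0 in 2 or 3 libraries, 8 had values that were all within 0.15 of a whole multiple of their smallest. The smallest value meets this by construction, and the number to be met without steps was not computed. Snord100, Snord57 and Snord89 are among the 8 through 2 nearly equal values (ratios of 1.04, 1.03 and 1.01), which show no step. Snord104 measured 33.1 FPKM in the vehicle library, 11.1 under ATRA, 0 under SAHA and 10.9 in the combination, or 3.04, 1.02 and 1 times its smallest value. Snora33 was at 4.47, 2.30, 0 and 2.36 FPKM, or 1.94, 1 and 1.03 times. In the other 9, Snora3 and Snora15 among them, at least 1 ratio was not near a whole number.

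Levels were carried by few members. Snora74a, at 840, 1048, 826 and 1076 FPKM with vehicle, ATRA, SAHA and the combination, and Scarna2 were the highest rows. The 5 highest rows held 67.4% of the members' summed FPKM with vehicle and 73.0% to 73.4% in the treated libraries. The sum over all members was 2899, 4127, 3512 and 5645 FPKM, or 1.09%, 1.36%, 1.36% and 1.83% of each library's total. Those totals were 266680, 304329, 258214 and 309001 FPKM. They include the single row Gm20594, at 48087, 50407, 87588 and 31801 FPKM, so the shares depend on that row too. Without Scarna2 the members' sum was 2431, 2884, 2651 and 3654 FPKM. The combination's sum was 1.95 times the vehicle's, and 1.5 times without Scarna2. Of the 30 members above 0 throughout, 18 were highest in the combination library, 6 with ATRA, 3 with SAHA and 3 with vehicle. The lowest of the 4 values was with SAHA for 13, with vehicle for 10, with ATRA for 5 and in the combination for 2. This ranking was not made over all genes. Of all 8509 counted rows above 0 throughout, 4839 were lower with SAHA than with vehicle. In the combination 5699 of them were higher than with SAHA and 4418 higher than with vehicle.

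**Figure D3:**
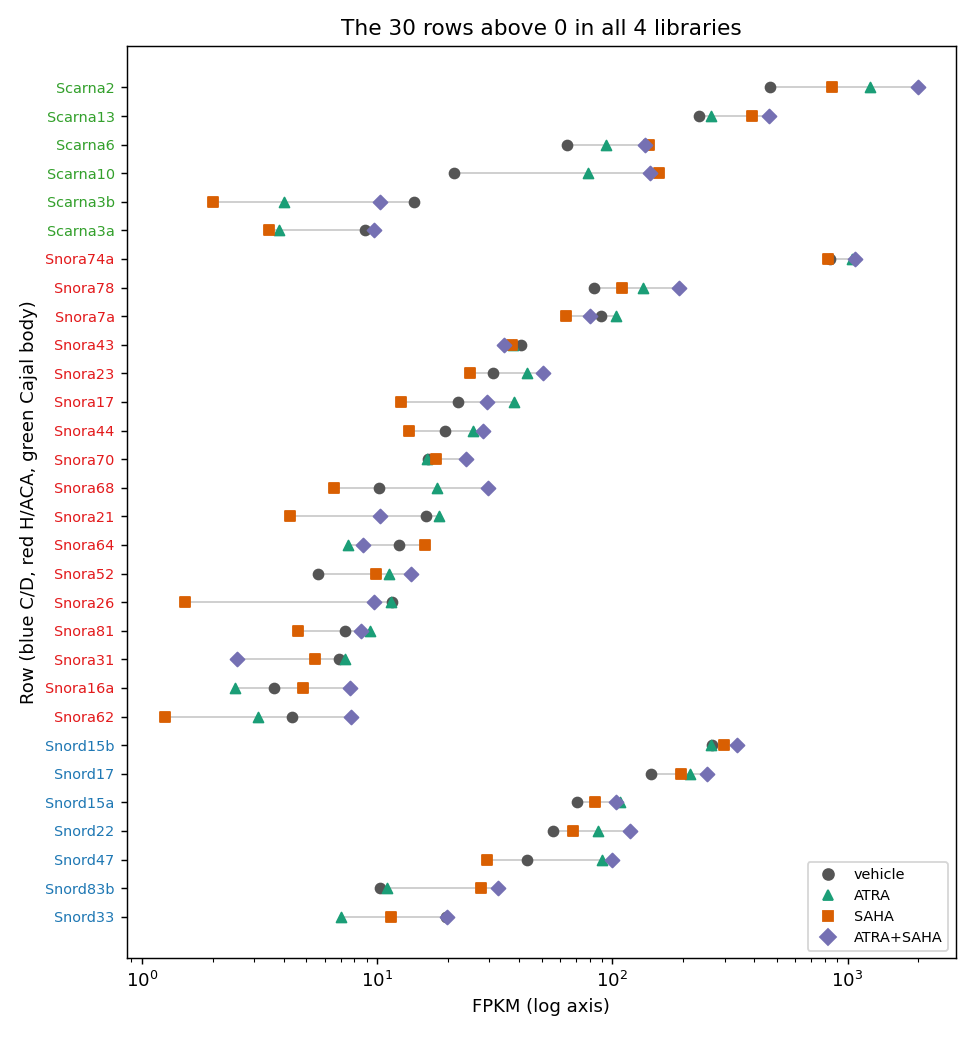
FPKM (log axis) in each of 4 libraries for the 30 members above 0 in all of them, by class and mean level, with a grey line from the lowest to the highest value. The combination is the highest of the 4 for 18 rows, and SAHA is the lowest for 10 of the 17 H/ACA rows. The same ranking was not made over all genes.

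The Cajal body RNAs at high levels stood above vehicle in every treated library. Scarna2 measured 468 FPKM in the vehicle library, 1243 under ATRA, 861 under SAHA and 1991 in the combination. The combination was 4.26-fold above vehicle, ATRA 2.66-fold and SAHA 1.84-fold. In that order of libraries Scarna10 was at 21.3, 78.8, 158 and 145 FPKM. It was 7.41-fold above vehicle with SAHA and 3.70-fold with ATRA, and the combination did not exceed SAHA alone (0.919-fold). Ncapd2, the condensin gene that hosts Scarna10, was at 4.15, 5.67, 1.46 and 3.55 FPKM, so the guide was highest in the library where its host was lowest. Scarna10 overlaps an exon of Ncapd2.

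Scarna6 and Scarna13 differed less. Scarna6, in an intron of the autophagy gene Atg16l1, was at 64.0, 93.6, 143 and 137 FPKM, 2.23-fold above vehicle with SAHA and 1.46-fold with ATRA. Its host was at 1.77, 1.32, 2.22 and 2.33 FPKM. Scarna13, in Snhg10, was at 233, 263, 392 and 465 FPKM, 1.69-fold above vehicle with SAHA and 1.999-fold in the combination. On the log2(FPKM + 1) scale the latter difference was 0.9964, just under the mark of 1 used here to call a difference.

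Scarna3a and Scarna3b lay below vehicle with each single compound. Scarna3a measured 8.91 FPKM in the vehicle library, 3.82 under ATRA, 3.48 under SAHA and 9.69 under both. Scarna3b was at 14.4, 3.996, 2.005 and 10.3 FPKM. Both were lower with each compound alone and closer to vehicle in the combination, which was 2.78-fold and 5.13-fold above SAHA alone. Their values are low, and some are within a few multiples of the smallest member value above 0 in their length range (1.51 FPKM). Scarna17 was listed at 0 in 3 libraries and at 19.7 FPKM in the combination, and Scarna8 and Scarna9 were listed at 0 in all 4.

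**Figure D4:**
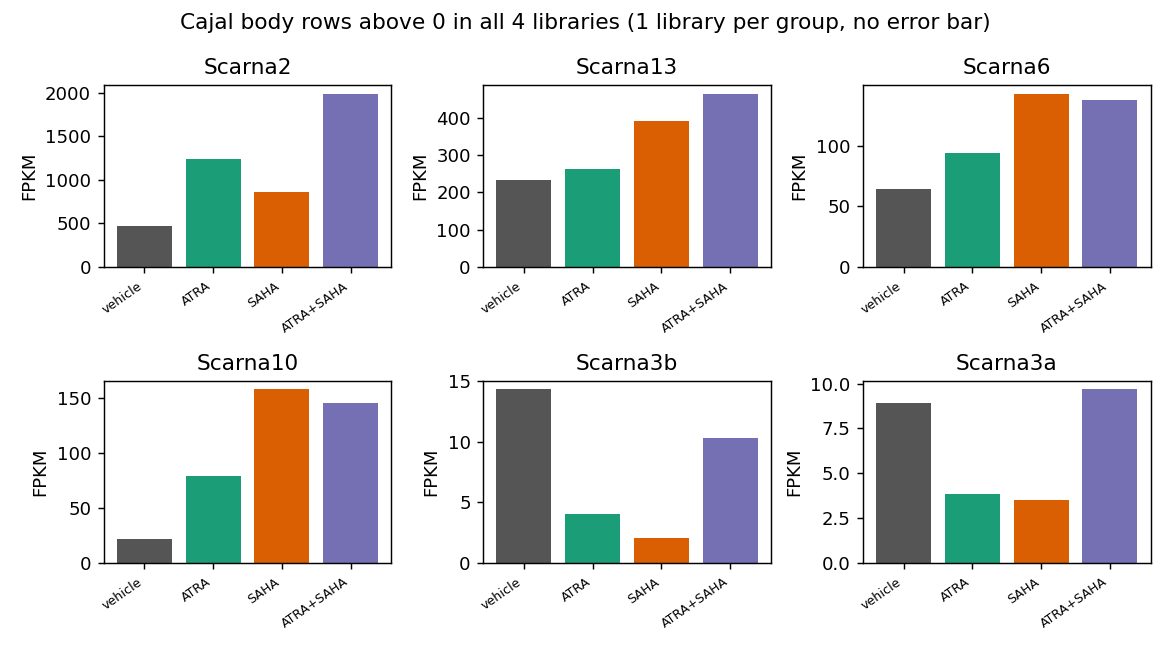
FPKM of the 6 Cajal body rows above 0 in all 4 libraries, as bars from 0 with a separate axis for each row and 1 library per bar. Scarna2, Scarna13, Scarna6 and Scarna10 stand above vehicle in every treated library, and Scarna3a and Scarna3b lie below it with each single compound.

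With SAHA, box H/ACA RNAs above 0 in every library were lower at a share near that of all genes. Of 27 counted H/ACA members, those with a mean of at least 1 FPKM, 8 were lower than vehicle by the 2-fold mark and 2 higher, where 16.0% and 7.88% of all counted genes were. These counts include 10 members at 0 in some library, which had to differ between libraries to be counted. Of the 17 above 0 in every library, 3 were lower (Snora21, Snora26 and Snora62), or 17.6%, and 0 higher, where 15.8% of all counted rows above 0 in every library were lower. Snora26, in the Dancr locus, measured 11.6 FPKM in the vehicle library, 11.4 under ATRA, 1.51 under SAHA and 9.65 under both. Snora21, in an intron of the ribosomal protein gene Rpl23, was at 16.2, 18.3, 4.27 and 10.3 FPKM. Snora62, in Rpsa, was at 4.35, 3.10, 1.25 and 7.73 FPKM. In all 3 the SAHA library was the lowest. The SAHA values of Snora26 and Snora62 were at or near the smallest value above 0 among members of their length.

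Host genes of these 3 members differed less. In that order Rpl23 was at 170, 164, 144 and 181 FPKM, and Rpsa at 177, 210, 180 and 261. Dancr was at 0.542, 0.507, 0.436 and 0.416 FPKM. Snora21 with SAHA was at 0.264 times its vehicle level, Snora26 at 0.131 times and Snora62 at 0.288 times.

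Some of the more abundant H/ACA members varied little, and others were highest in the combination. Snora23, Snora17 and Snora44, given further below, were also abundant and had their lowest value with SAHA, and Snora17 was highest with ATRA. Snora43 was at 40.7, 37.6, 37.4 and 34.6 FPKM, the smallest ratio of highest to lowest value among the 30. Snora7a, in the Rpl32 locus, was at 89.7, 103, 63.4 and 80.3 FPKM, and Snora70, in Rpl10, at 16.4, 16.3, 17.8 and 23.8. For none of these 3, nor for Snora74a, did any library differ from vehicle by the 2-fold mark. Snora78, in Snhg9, was at 83.6, 135, 110 and 191 FPKM, 2.29-fold above vehicle in the combination. Snora68 was at 10.2, 17.9, 6.56 and 29.7 FPKM, 2.92-fold above vehicle and 4.53-fold above SAHA in the combination.

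Of the other 8 H/ACA members above 0 throughout, 4 had their lowest value with SAHA as well, namely Snora17, Snora23, Snora44 and Snora81. Snora23, in the importin gene Ipo7, was at 30.99, 43.2, 24.8 and 50.7 FPKM, and Snora17, listed at the locus of Snora43, at 22.1, 38.0, 12.6 and 29.3. Snora44, in Snhg12, was at 19.4, 25.4, 13.7 and 28.3 FPKM. Snora52, in Rplp2, was at 5.60, 11.2, 9.88 and 13.9 FPKM, lowest with vehicle instead. Snora64, in Rps2, was highest with SAHA, at 12.4, 7.53, 15.9 and 8.71 FPKM. Snora31, in Tpt1, was the 1 H/ACA member of the 17 lower in the combination than with vehicle by the 2-fold mark, at 6.90, 7.32, 5.45 and 2.52 FPKM. Snora16a (2.49 to 7.64 FPKM) and Snora81 (4.61 to 9.31 FPKM) stayed below 10 FPKM.

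The abundant box C/D RNAs differed little between libraries. Snord15b, a guide for 28S ribosomal RNA in the ribosomal protein gene Rps3, measured 266 FPKM in the vehicle library, 264 under ATRA, 298 under SAHA and 337 under both. Snord15a in the same host was at 70.4, 107, 84.2 and 103 FPKM, and Rps3 itself at 112, 123, 113 and 156. Snord17, in an intron of Snx5, was at 146, 214, 197 and 252 FPKM. None of the 3 differed from vehicle by the 2-fold mark in any library.

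The pair of abundant C/D members in noncoding host genes had larger ratios than Snord15b, Snord15a and Snord17, and both overlap exons of their hosts. Ratios of highest to lowest value were also larger for Snord83b (3.18) and Snord33 (2.83), which lie in ribosomal protein genes. Snord22, an RNA needed to mature 18S ribosomal RNA, was at 55.9, 86.9, 67.8 and 119 FPKM, 2.13-fold above vehicle in the combination. Its host Snhg1 was at 3.02, 1.56, 0.345 and 3.30 FPKM. Snord47 was at 43.2, 90.02, 29.2 and 99.9 FPKM, with the SAHA library lowest and both ATRA-treated libraries more than 2-fold above vehicle. Its host Gas5 was at 6.79, 5.06, 4.07 and 3.61 FPKM, highest with vehicle. Snord22 and Snhg1 were both highest in the combination, but Snord22 was lowest with vehicle and Snhg1 with SAHA. Snord47 and Gas5 had their highest and their lowest values in different libraries.

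Snord83b, in the ribosomal protein gene Rpl3, was at 10.3, 11.0, 27.6 and 32.6 FPKM, 2.69-fold above vehicle with SAHA and 3.18-fold with the combination. Rpl3 was at 220, 252, 192 and 294 FPKM. Snord33, in Rpl13a, was at 19.6, 7.02, 11.5 and 19.9 FPKM. These complete the 7 C/D members above 0 in every library, and all 7 had a positive difference in the combination against vehicle. For Snord33 it was only 0.0197 on the log2(FPKM + 1) scale. Of all 8509 counted rows above 0 in every library, 4418 had a positive difference.

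Members at 0 in some libraries and at 10 FPKM or more in another numbered 18, and 11 of these had a single value above 0. Of the 16 C/D members among them, 4 were above 0 with vehicle alone: Snord70 at 87.0 FPKM, Snord118 at 43.2, Snord95 at 14.0 and Snord61 at 11.8. Snord110 (46.6 FPKM), Snord99 (32.7) and Snord42b (26.9) were above 0 in the combination alone, as was the H/ACA member Snora61 (21.5). Snord49a (22.4 FPKM) was above 0 with ATRA alone and Snord71 (13.8) with SAHA alone. No fold is given against a library listed at 0.

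The others had 2 or 3 values. Snord32a was at 27.9, 14.1, 0 and 38.9 FPKM in the order vehicle, ATRA, SAHA and combination, and Snord34 in the same Rpl13a locus at 0, 11.6, 0 and 37.2. Snord57, in Nop56, was at 0, 16.4, 0 and 15.9 FPKM. In these 3 the SAHA value was 0 and the combination's was not. Snord82, in Ncl, had the reverse pattern, at 12.5, 0, 14.8 and 0 FPKM. Snord16a, in Rpl4, was at 0, 8.62, 18.1 and 11.4 FPKM, and Snord8, in Chd8, at 0, 3.57, 9.15 and 10.7, both at 0 with vehicle alone.

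Members of 1 locus differed in their listed values. In Snhg12, Snora61 and Snord99 were above 0 in the combination alone, while Snora44 and Snora16a had values in all 4 libraries. Snora61 and Snord99 have 62 and 56 bases in RefSeq, and Snora44 and Snora16a have 117 and 136. Snhg12 was at 4.78, 2.72, 1.20 and 8.24 FPKM, highest in the combination. In Rpl13a, Snord35a was listed at 0 throughout, and the host was at 159, 184, 133 and 194 FPKM. In Nop56, a gene for a C/D core protein, Snord110 and Snord57 had values in the combination while the host was at 29.5, 16.6, 3.48 and 5.88 FPKM. Snord110 and Snord57 have 59 and 63 bases. Under 65 bases, 24 of 35 members were at 0 throughout, and the smallest value above 0 was 11.8 FPKM. The part of length in these differences was not tested.

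Across the class, a difference was called at a difference of at least 1 in log2(FPKM + 1), which is 2-fold for FPKM + 1, among 60 members with a mean of at least 1 FPKM (26 C/D, 27 H/ACA and 7 Cajal body). Of these, 30 were at 0 in at least 1 library. A row that passes this filter through its high libraries alone must differ, so the 30 members above 0 throughout are given beside each count. With ATRA, 11 of 60 members were higher and 13 lower, against 0.917% and 1.2% of all 8616 counted genes. Among the 30 above 0 throughout, 3 were higher (Scarna10, Scarna2 and Snord47) and 3 lower (Scarna3a, Scarna3b and Snord33). Each is 10.0%, against 0.564% higher and 0.928% lower of all 8509 counted rows above 0 throughout. Over all 107 counted rows of the table with a 0, members included, 29.0% were higher and 22.4% lower.

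With SAHA, 9 of 60 members were higher and 17 lower, against 7.88% and 16.0% of all counted genes. Among the 30 above 0 throughout, 3 were higher (Scarna10, Scarna6 and Snord83b) and 5 lower (Scarna3a, Scarna3b, Snora21, Snora26 and Snora62). These are 10.0% and 16.7%, near the 7.66% and 15.8% of all 8509 counted rows above 0 throughout. By class, the median log2 difference of counted members was 0.00 for C/D, -0.48 for H/ACA and 0.75 for Cajal body RNAs, against -0.12 for all counted genes. Over all members, with no filter, the 3 medians with SAHA were 0.00, -0.07 and 0.00, and in the 4 counted Cajal body members of at least 110 bases the median was -0.20.

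With the combination, 21 members were higher and 10 lower than with vehicle, against 11.1% and 12.6% of all counted genes. Among the 30 above 0 throughout, 9 were higher (Scarna10, Scarna2, Snord83b, Snora68, Snora78, Snord47, Snora52, Scarna6 and Snord22) and 1 lower (Snora31). Of all 8509 counted rows above 0 throughout, 10.8% were higher and 12.5% lower. Among the 30 counted members with a 0, 12 were higher and 9 lower. Of all 107 counted rows with a 0, members included, 34.6% were higher and 23.4% lower. The comparisons of each compound and of the combination with vehicle share the vehicle library. The class medians were 0.51, 0.36 and 1.09 in the order C/D, H/ACA and Cajal body, against 0.04 for all counted genes. With no filter they were 0.00, 0.00 and 0.9964. In the 4 counted Cajal body members of at least 110 bases the median was 0.55, and without members that share a locus, which leaves 2 per class, the C/D and H/ACA medians were -0.76 and -1.19.

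**Figure D5:**
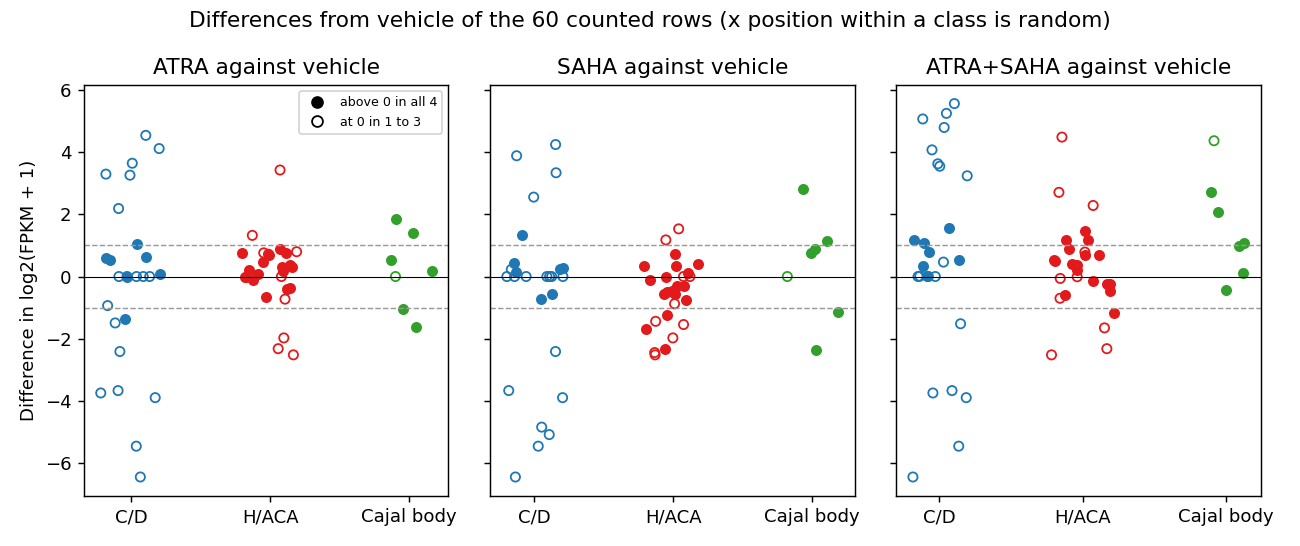
Differences from vehicle in log2(FPKM + 1) of the 60 counted members by class, 1 point per member. Filled points are above 0 in all 4 libraries and open points are at 0 in 1 to 3. Dashed lines mark a difference of 1. All differences beyond 3 either way are open points.

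The last 2 comparisons set the combination against each compound, and they share the combination library with the one above. Against SAHA, 27 members were higher and 5 lower, against 3.04% and 0.929% of all counted genes. Among the 30 above 0 throughout, 10 were higher (Snora26, Snora68, Snora62, Scarna3b, Snord47, Scarna3a, Scarna2, Snora17, Snora21 and Snora23) and 0 lower, with 25 differences above 0 and a median of 0.65, against 0.14 for all counted genes. Of all 8509 counted rows above 0 throughout, 2.6% were higher and 0.717% lower, and 5699 had differences above 0. Among the 30 members with a 0, 56.7% were higher and 16.7% lower, against 38.3% and 17.8% of the 107 counted rows with a 0. Snora44, at 0.9965, lay just under the mark. Against ATRA, 16 were higher and 3 lower, against 10.5% and 11.9%. Among the 30 above 0 throughout, 6 were higher (Snord83b, Snord33, Snora16a, Scarna3b, Scarna3a and Snora62) and 1 lower (Snora31). Of all 8509 counted rows above 0 throughout, 10.2% were higher than with ATRA and 11.8% lower. Among the 30 members with a 0, 10 were higher and 2 lower. Of the 107 counted rows with a 0, 32.7% were higher and 23.4% lower.

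In 4 lists of genes for proteins that bind, assemble or localise the guides, 0 counted genes passed the 2-fold mark with ATRA. Of all counted genes, 0.917% were higher and 1.2% lower with ATRA, and 7.88% and 16.0% with SAHA. In the combination the shares against vehicle were 11.1% and 12.6%. The counts below come from lists of 3 to 16 counted genes, too few to compare with these shares. Of the 4 C/D core protein genes, 1 was lower with SAHA and 0 higher: Nop56, at 29.5, 16.6, 3.48 and 5.88 FPKM, was lower with SAHA and in the combination. The methyltransferase gene Fbl was at 9.79, 8.87, 6.53 and 9.76 FPKM, and Nop58 at 25.4, 15.7, 14.6 and 27.3. Of the 3 counted H/ACA core genes, 1 was lower and 1 higher with SAHA. Dkc1, which encodes dyskerin, was lower with SAHA and in the combination, at 5.74, 4.10, 0.547 and 0.821 FPKM. Nop10 was higher with SAHA, at 10.2, 15.4, 30.1 and 19.3 FPKM. Among 16 counted assembly and maturation genes, 1 passed the mark with SAHA, where Exosc10, an exosome nuclease gene, was lower (1.32 FPKM against 3.84). In the combination 2 of the 16 were higher than with vehicle, the assembly ATPase gene Ruvbl2 (25.6 FPKM against 7.92) and Znhit3 (4.09 against 1.14). Of 5 counted Cajal body and telomerase genes, Smn1, the survival motor neuron gene, was higher in the combination (7.39 FPKM against 2.80) and the other 4 did not pass the mark against vehicle in any library. Coil, the gene of the Cajal body scaffold coilin, was at 0.663 to 1.06 FPKM.

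Other short structured RNAs give the same measurement outside the members. Rmrp, the RNA of RNase MRP, was at 4447, 7031, 6869 and 9229 FPKM and Rpph1, the RNA of RNase P, at 11332, 16237, 12207 and 21315. Both were highest in the combination, as were 18 of the 30 members. The rows Rprl1, Rprl2 and Rprl3 were also highest in the combination, and lowest with SAHA. Rprl3 was at 15578, 18243, 12824 and 21645 FPKM. Terc, the telomerase RNA, which is itself of the H/ACA kind, was at 9.81, 18.9, 12.2 and 16.3 FPKM. The minor spliceosomal RNAs Rnu11 (62.5, 50.8, 16.8 and 24.0 FPKM) and Rnu12 (33.3, 31.4, 13.1 and 37.9 FPKM) were lowest with SAHA. Whether a library-wide difference in the recovery of short RNAs has a part in the members' values was not tested.

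Among rows of the whole series that bear on the cells, 14 marker genes were read. The mesenchymal gene Vim was at 319 to 562 FPKM, the epithelial keratin gene Krt18 at 45.3 to 116 and Cd44 at 20.97 to 61.8. Tlr4 was at 5.09, 5.08, 0.466 and 0.333 FPKM, and the macrophage gene Cd68 at 1.89, 2.41, 5.20 and 4.26. The hepatocyte genes Alb, Afp and Hnf4a, the bile duct genes Krt19 and Epcam, the stem cell marker Prom1, the endothelial genes Pecam1 and Kdr and the leukocyte gene Ptprc stayed below 1 FPKM in all 4 libraries. Gm20594 was at 48087, 50407, 87588 and 31801 FPKM and the nuclear RNA Malat1 at 36.0, 25.9, 141 and 55.6, both highest in the SAHA library. The part of these marker and composition differences in the members' values was not tested.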

How the data were processed

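Values are FPKM that the authors deposited, in a column for each library, per the file headers. Trimmomatic 0.32 was used on the reads and Cuffdiff with the mm10 build, per the submitters' processing notes. Total RNA was depleted of ribosomal RNA, per the labels' protocols. Not given in the sources used here are the aligner, annotation, strand setting and read counts, so depth is unknown. In all, 23359 rows were read with Python 3.11.15 and pandas 2.3.3. Differences were taken as log2(FPKM + 1), which understates differences of low rows, among rows with a mean of at least 1 FPKM. No test was run, since each group is 1 library.

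Members, lists and settings were chosen with earlier results of these data known. Named members are all Scarna rows, the 8 highest Snord and Snora rows by mean, the 5 highest and 5 lowest of each class per comparison with vehicle (at least 10 FPKM in the higher library), rows at 0 in at least 1 library and 10 FPKM or more in another, and overlapping members. Some other low rows are named from these loci, chosen after their values were seen. Lengths are from RefSeq (GRCm38.p6) and sequences, strands and hosts from GENCODE. A host is the shortest longer gene that contains the member on its strand, with genes in the table preferred. Identity is 100% less edits over the longer length.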

Additional observations from a re-analysis of the deposited data

Results flagged for a closer look

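Scarna3a and Scarna3b went opposite ways when ATRA was given alone and when it was added to SAHA. Scarna3a differed by -1.04 on the log2(FPKM + 1) scale between ATRA and vehicle and by 1.25 between the combination and SAHA. For Scarna3b the same differences were -1.62 and 1.91. With 1 library per group the difference between these effects was not tested. The pair has 85.7% sequence identity, and both rows had low values, from 2.005 to 14.4 FPKM. Whether reads were shared between them was not tested.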

How the results depend on the processing

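Counts of members called are given here for ATRA, SAHA and the combination against vehicle and for the combination against SAHA and against ATRA, in that order. In the report they were 11, 9, 21, 27 and 16 higher and 13, 17, 10, 5 and 3 lower. With a pseudocount of 0.1, 12, 9, 22, 28 and 17 were higher and 13, 18, 10, 6 and 5 lower. With a pseudocount of 10, 5, 4, 14, 12 and 8 were higher and 6, 7, 6, 2 and 1 lower. With no filter, every count was within 1.5 times of that in the report. With a mean of at least 5 FPKM, 8, 5, 17, 17 and 11 were higher and 7, 8, 5, 1 and 2 lower. Without members at 0 in any library, 3, 3, 9, 10 and 6 were higher and 3, 5, 1, 0 and 1 lower. Without members that share a locus with another row (6 left), 1, 0, 2, 5 and 2 were higher and 3, 3, 2, 1 and 0 lower. With members of at least 110 bases alone, an alternative chosen after seeing the data, 2, 3, 6, 12 and 5 were higher and 5, 10, 4, 1 and 2 lower. After centring on the median of all counted genes, every count was within 1.5 times of that in the report. Filters that remove rows lower the counts by their construction. Of 129 values of single named members against vehicle, 14 no longer reached the 2-fold mark with a pseudocount of 10 and 1 reached it after centring. Centring turned the sign of the small SAHA differences of Snora43 (-0.1212 to 0.0001) and Snora74a (-0.0231 to 0.0982). Class medians moved too. With no filter, the medians against vehicle were 0.00 in each class, except -0.07 for H/ACA under SAHA and 0.9964 for Cajal body RNAs in the combination. At 110 bases or more (4 Cajal body members), the Cajal body medians were -0.43 with ATRA, -0.20 with SAHA and 0.55 in the combination. Without members that share a locus (2 per class), the combination's medians were -0.76 for C/D, -1.19 for H/ACA and 3.23 for Cajal body RNAs, and the H/ACA median with ATRA was -0.80. With members at 0 left out, the combination against vehicle kept more members higher (9) than lower (1), and SAHA more lower (5) than higher (3). The SAHA shares were near those of all counted rows above 0 in every library. The fragments behind a value are unknown, and the smallest member value above 0 was 11.8 FPKM under 65 bases and 1.25 FPKM from 130 bases up. No paired analysis was possible because each group has 1 library and the columns carry no replicate numbers.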

Other observations

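The name rule leaves out guide RNAs with other symbols. Rnu73b, which lies at the same locus as Snord73a, measured 10.1 FPKM in the vehicle library, 0 under either single compound and 10.5 in the combination. Of 8 rows named AF357 or DQ267 followed by digits, symbols under which small RNA clones were recorded, 7 were listed at 0 in every library, and AF357425 was at 9.01 FPKM with SAHA alone.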
